A study of Mus musculus with 4 samples.

Results

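Endothelial cells line the blood vessels that run between the seminiferous tubules of the testis, and red blood cells pass through those vessels. The genes described here are 9 markers of these cell types, chosen by name as a set, out of 25683 genes in the deposited table. The 6 endothelial genes were *Cdh5*, *Eng*, *Vwf*, *Pecam1*, *Kdr* and *Tie1*, and the 3 red blood cell genes were *Hba-a1*, *Hbb-bs* and *Alas2*. All 9 were found in the table by symbol, and all 9 passed the filter on low counts. The choice of genes used no measured value of these libraries directly, but it was made with earlier results of the same data known.

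RNA from whole testis was sequenced in 2 control libraries from wild type (WT) mice and 2 libraries from *Parp1* knockout mice. The knockout mice carried the 129S-Parp1tm1Zqw/J allele, in which a neo cassette interrupts the gene in every cell, crossed onto C57Bl/J, and no treatment is named for either genotype. The question put to these libraries was whether *Parp1* mRNA is present in the knockout. The age of the mice, the strain of the controls and whether the libraries of a genotype came from separate animals were not given in the sources used here, so p-values measure only the spread between these libraries, which may be technical.

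The libraries held 20449210 (control 1), 23503503 (control 2), 21821073 and 18103863 exon reads. The knockout columns share 1 heading, so they are told apart by depth, as knockout A (the deeper) and knockout B, and values are given in the order control 1, control 2, knockout A, knockout B. Their genotype label is PARP1ko, but their sample titles point to a *Parg* line. *Parp1* stood at 86.4 and 86.0 CPM (the usual count per unit of library size, with library sizes scaled by TMM) in the controls against 24.1 and 22.1 CPM in the knockout libraries, a log2 fold change of -1.90 (SE 0.10, Benjamini-Hochberg adjusted p = 0.0126, edgeR's quasi-likelihood test). *Parg* stood at 37.2 and 36.0 CPM in the controls and 37.5 and 46.3 CPM in the knockout libraries. The libraries of the knockout differed from each other more than those of the control did, with a root mean square log2 difference over genes of 0.55 against 0.34.

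Vascular endothelium is held together by adherens junctions built on VE-cadherin (*Cdh5*) and, outside these junctions, by the adhesion molecule PECAM-1 (*Pecam1*). It is kept alive and patterned by the VEGF receptor KDR, the angiopoietin receptor partner TIE1 and the TGF-beta co-receptor endoglin (*Eng*), and it stores von Willebrand factor (*Vwf*) for clotting. Mature mammalian red blood cells have no nucleus, and young ones still carry mRNA, most of it for alpha and beta globin. ALAS2 is the red cell form of the first enzyme of heme synthesis, and it supplies the heme that globin binds.

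The adult alpha globin of the mouse is made from a pair of almost identical genes, *Hba-a1* and *Hba-a2*, and the adult beta globin of the C57BL/6 haplotype from another pair, *Hbb-bs* and *Hbb-bt*. The ends of their coding sequences, from base 301 on and without the stop codon, are shown because they hold the single base by which each pair differs, and so show how little of a read can tell the copies apart. The differing base is in capitals, and the sequences were read from GRCm38 with the GENCODE M21 annotation.
Hba-a1: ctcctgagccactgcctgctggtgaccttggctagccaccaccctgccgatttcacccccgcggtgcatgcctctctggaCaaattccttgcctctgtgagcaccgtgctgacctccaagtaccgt
Hba-a2: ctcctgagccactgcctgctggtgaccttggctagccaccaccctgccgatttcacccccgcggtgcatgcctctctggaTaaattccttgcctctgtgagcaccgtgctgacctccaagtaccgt
Hbb-bs: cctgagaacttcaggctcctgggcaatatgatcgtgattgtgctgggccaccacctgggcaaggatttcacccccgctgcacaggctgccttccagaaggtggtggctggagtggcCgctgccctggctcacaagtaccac
Hbb-bt: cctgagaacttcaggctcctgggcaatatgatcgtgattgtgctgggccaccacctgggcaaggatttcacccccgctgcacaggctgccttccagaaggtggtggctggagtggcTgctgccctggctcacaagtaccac

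Over 426 coding bases *Hba-a1* and *Hba-a2* differed only by C381T, counted from 1 at the start codon. Over 441 coding bases *Hbb-bs* and *Hbb-bt* differed only by C417T. A stretch of 150 bases, the length of a read, held no difference at 83.4% of positions in the alpha pair and at 91.4% in the beta pair. The untranslated ends differ more, and of the 150-base windows of the whole *Hba-a1* transcript 48.4% occurred in *Hba-a2*, while of those of *Hbb-bs* 58.7% occurred in *Hbb-bt*. In control 1 the authors' table called 45.5% of the exon reads of *Hba-a1* unique (95% Clopper-Pearson interval 37.7% to 53.4%) and 66.8% of those of *Hbb-bs*. In control 2 the shares were 50.7% and 54.2%. The 6 endothelial genes had 100% unique reads in both controls, and *Alas2* had 95.3% and 94.1%. How the reads of a globin pair were divided between its copies is not given in the sources used here, so the level of a single globin gene is uncertain, and the sum over a pair is given beside it.

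None of the 9 genes differed between knockout and control at an adjusted p under 0.05, by edgeR's quasi-likelihood test over 15834 genes. Of all genes tested 0.0947% passed. At an unadjusted p under 0.05 there were also 0 of 9, where 7.79% of all genes were past it, and DESeq2 (1.22% of all genes), the likelihood ratio test (2.36%) and limma voom (0.0695%) called 0 of 9 as well. The fitted log2 fold change was below 0 for 7 of the 9, against 48.4% of all genes tested, and the median over the 9 was -0.49, against 0.01 over all genes. Over the 6 endothelial genes the median was -0.41, and it was -0.07 without control 2. Both knockout libraries lay below both controls for 4 of the 9 (*Eng*, *Vwf*, *Pecam1* and *Hbb-bs*), where 19.2% of all genes did, and both lay above for 0 of 9, where 17.9% did. Without knockout A 6 of the 9 passed (*Kdr* higher and *Eng*, *Vwf*, *Pecam1*, *Hba-a1* and *Hbb-bs* lower in the knockout), where 23.9% of all genes passed, and without knockout B 1 of 9 (*Kdr*, lower) did, against 17.0% of all genes. In a fit with 1 knockout library left, the spread comes from the controls alone. Such a count does not measure the spread between knockout libraries. In whole tissue, fewer cells of a type and less RNA per cell cannot be told apart.

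**Figure D1:**
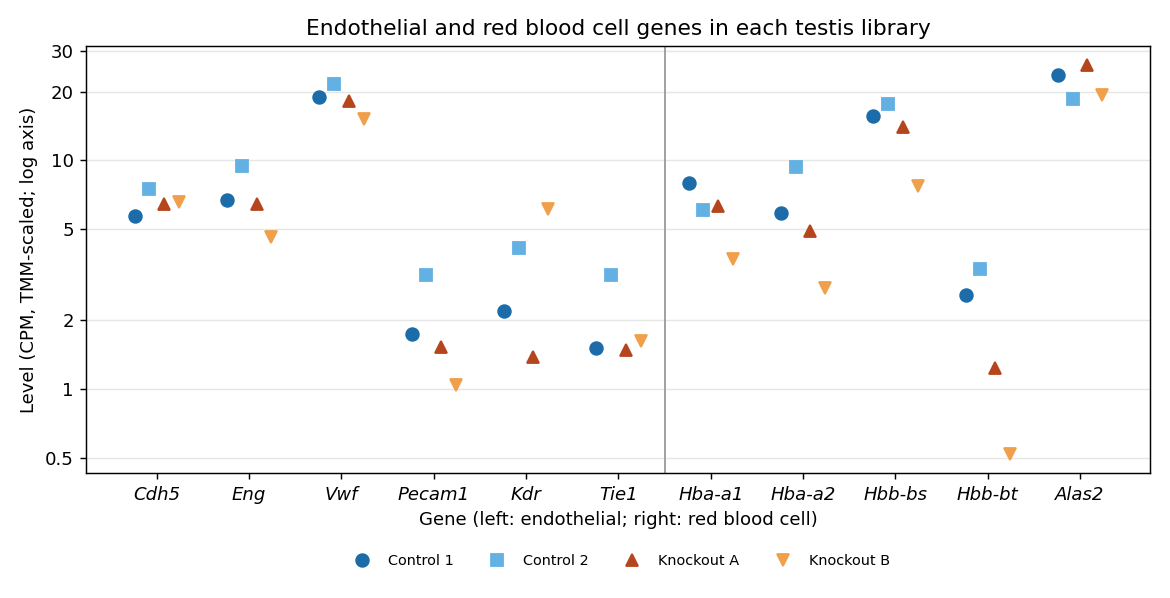
Level of each gene in each library, in TMM-scaled CPM on a log axis, with endothelial genes on the left and red blood cell genes, including the globin copies Hba-a2 and Hbb-bt, on the right. Each point is 1 library. The 4 globin genes were lowest in knockout B, and Kdr was highest there at 6.15 CPM.

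Among the junction proteins, *Cdh5* (ENSMUSG00000031871, chromosome 8, 104101625 to 104144511, plus strand, as all positions on GRCm38) makes VE-cadherin, which joins endothelial cells to each other and defines the cell type. Its level was 5.73 and 7.48 CPM in the controls and 6.42 and 6.57 CPM in the knockout libraries, so that both knockout values lay between the control values. The log2 fold change was -0.03 (SE 0.22, 95% interval -0.56 to 0.51, adjusted p = 0.993). This was the gene of the set whose fold change lay nearest to 0.

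*Pecam1* (ENSMUSG00000020717, chromosome 11, 106654217 to 106750628, minus strand) makes an adhesion molecule of endothelial cells that platelets and many leukocytes share. It had 36 and 75 reads in the controls, which is 1.75 and 3.17 CPM, and 31 and 20 reads in the knockout libraries, which is 1.53 and 1.04 CPM. Both knockout libraries lay below both controls, but knockout A lay only slightly below control 1. The log2 fold change of -0.93 (SE 0.43, 95% interval -2.01 to 0.15, adjusted p = 0.727) was the lowest of the 9 and also among the least precise.

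The receptors of the set differed in their order over the libraries. *Eng* (ENSMUSG00000026814, chromosome 2, 32646595 to 32682669, plus strand) encodes the co-receptor endoglin, which presents BMP ligands to ACVRL1. It stood at 6.70 and 9.42 CPM in the controls and 6.47 and 4.64 CPM in the knockout libraries. The knockout values were both lower, with a log2 fold change of -0.54 (SE 0.27, 95% interval -1.22 to 0.14, adjusted p = 0.762). *Acvrl1* itself had 3.30 and 5.07 CPM in the controls and 3.70 and 4.59 CPM in the knockout libraries, a log2 fold change of -0.02.

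*Tie1* (ENSMUSG00000033191, chromosome 4, 118471191 to 118490061, minus strand) makes the receptor that works with TEK, the receptor of the angiopoietins. Its level was 1.50 and 3.17 CPM in the controls and 1.48 and 1.62 CPM in the knockout libraries. Only control 2 stood apart, and the remaining 3 libraries had 30 or 31 reads each. The log2 fold change was -0.60 (SE 0.44, 95% interval -1.70 to 0.50, adjusted p = 0.866), and it was 0.04 without control 2.

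*Kdr* (ENSMUSG00000062960, chromosome 5, 75932827 to 75978458, minus strand) makes VEGFR2, the main signalling receptor for VEGF-A on endothelium. It had 45 and 98 reads in the controls (2.18 and 4.14 CPM), 28 reads in knockout A (1.38 CPM) and 118 in knockout B (6.15 CPM). The knockout libraries thus held both the lowest and the highest value. The fitted log2 fold change of 0.24 (SE 0.70, 95% interval -1.51 to 1.99, adjusted p = 0.979) has the widest interval of the 9.

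Between the knockout libraries *Kdr* differed by a log2 ratio of 2.15 (95% counting interval 1.55 to 2.80), a 4.45-fold difference, and only 1.06% of all genes tested differed by more. *Cdh5* differed by a log2 ratio of 0.03 between the same libraries (-0.33 to 0.40). There were 0.381 and 0.554 *Kdr* reads for each *Cdh5* read in the controls, 0.215 in knockout A (0.138 to 0.326) and 0.937 in knockout B (0.722 to 1.21), and the intervals of the knockout libraries did not overlap. Counting intervals cover counting error only.

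Leaving out a knockout library turned the sign of *Kdr*. Without knockout B its log2 fold change was -1.20, and without knockout A it was 0.95. Without control 1 it was -0.14.

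*Vwf* (ENSMUSG00000001930, chromosome 6, 125546774 to 125686679, plus strand) makes von Willebrand factor, the clotting protein that endothelium secretes. Its level was 18.9 and 21.6 CPM in the controls and 18.2 and 15.2 CPM in the knockout libraries. Both knockout values were below both controls, by a log2 fold change of -0.28 (SE 0.15, 95% interval -0.66 to 0.11, adjusted p = 0.804), the narrowest interval of the 9. In control 2 introns held 11.6% of the reads in the *Vwf* gene (95% interval 9.10% to 14.5%), where they held 5.59% over all genes, and the interval in control 1 was 8.19% to 14.3%.

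**Figure D2:**
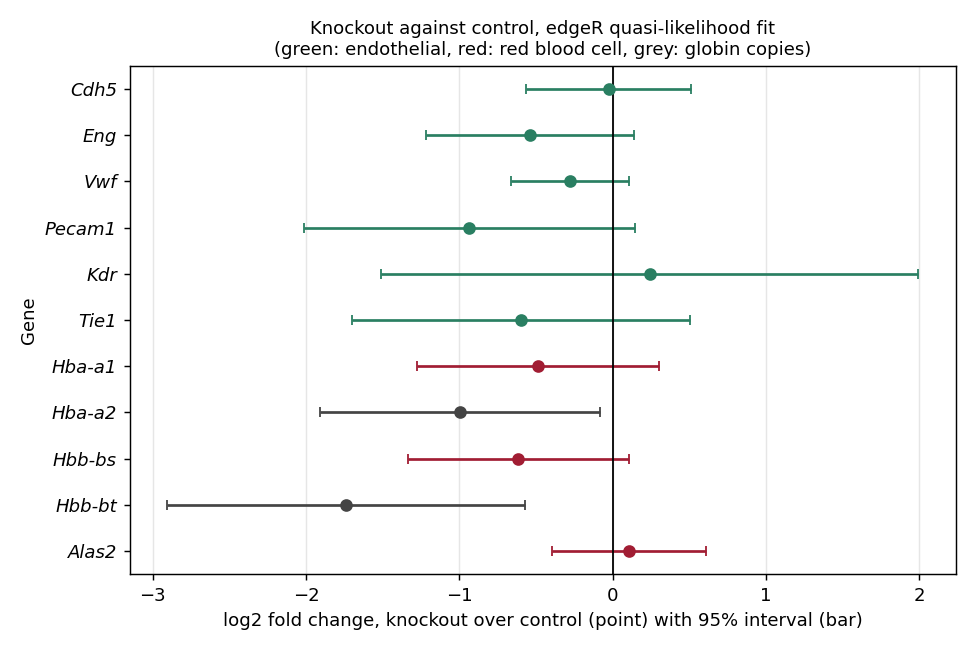
Log2 fold change of knockout over control for the 9 genes and the globin copies Hba-a2 and Hbb-bt, with 95% intervals from the edgeR quasi-likelihood fit. The intervals of all 9 genes include 0, those of the copies do not, and the interval of Kdr runs from -1.51 to 1.99.

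Per kilobase of exon, where levels can be compared between genes, the endothelial genes stood low in testis. In the controls the mean was 2.21 ± 0.53 RPKM (CPM per kilobase of exon, SD, n = 2) for *Eng*, 2.07 ± 0.19 for *Vwf* and 1.57 ± 0.30 for *Cdh5*. It was 0.592 ± 0.242 for *Pecam1*, 0.534 ± 0.234 for *Kdr* and 0.513 ± 0.259 for *Tie1*. The ranges of the controls overlapped for *Eng* and *Vwf* and for the last 3 genes, while *Cdh5* (1.36 and 1.78) lay between these without overlap, and 12.5% to 33.5% of all genes tested had a lower level. The red blood cell genes stood higher, with 23.4 ± 2.1 RPKM for *Hbb-bs*, 10.4 ± 1.8 for *Alas2* and 10.1 ± 1.9 for *Hba-a1*, and 63.8% to 79.5% of the genes tested had a lower level.

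The CPM of the 6 endothelial genes summed to 36.8 and 49.0 in the controls and 35.5 and 35.2 in the knockout libraries. The mean of the knockout was 82.4% of that of the control, and control 2 stood apart from the other 3 libraries. Without *Kdr* the sum was 34.6 and 44.8 in the controls and 34.1 and 29.0 in the knockout libraries.

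Control 2 was above control 1 for each of the 6 endothelial genes, by log2 ratios from 0.19 for *Vwf* to 1.07 for *Tie1*. Lists of pericyte and vascular muscle genes and of Leydig cell genes followed the same order in the controls. The most abundant genes of the former (*Acta2*, *Tagln* and *Myh11*) are also made by the peritubular cells of the testis. The summed level of 11 pericyte and vascular muscle genes was 77.4 CPM in control 1 and 120 CPM in control 2, with 69.1 and 99.6 CPM in knockout A and B. That of 7 Leydig cell genes was 1345 and 1703 CPM in the controls and 1191 and 2572 CPM in the knockout libraries. Most of the Leydig sum in knockout B was *Insl3*, and the median log2 ratio of the 7 genes to the controls was 0.26 there. In the knockout libraries the order of these lists was not shared by the endothelial sum, and their part in it was not tested.

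Among the red blood cell genes, *Hba-a1* (ENSMUSG00000069919, chromosome 11, 32283511 to 32284465, plus strand) stood at 8.01 and 6.08 CPM in the controls and 6.32 and 3.70 CPM in the knockout libraries. The groups overlapped, since knockout A lay between the controls. The log2 fold change was -0.49 (SE 0.32, 95% interval -1.28 to 0.30, adjusted p = 0.837).

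Its copy *Hba-a2* (ENSMUSG00000069917, chromosome 11, 32296489 to 32297298, plus strand) stood at 5.92 and 9.34 CPM in the controls and 4.89 and 2.76 CPM in the knockout libraries. Here the groups did not overlap, with a log2 fold change of -0.99 (unadjusted p = 0.0378, adjusted p = 0.584, edgeR's quasi-likelihood test). The 2 controls ordered the copies in opposite ways, with 0.739 *Hba-a2* reads for each *Hba-a1* read in control 1 (95% counting interval 0.580 to 0.940) and 1.53 in control 2 (1.24 to 1.91). In the knockout libraries the ratio was 0.773 and 0.746.

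*Hbb-bs* (ENSMUSG00000052305, chromosome 7, 103826534 to 103828096, minus strand) had 322 and 419 reads in the controls, which is 15.6 and 17.7 CPM. It had 284 and 148 reads in the knockout libraries, which is 14.0 and 7.72 CPM. Both knockout libraries were lower, knockout B much more so, and the log2 fold change was -0.61 (SE 0.29, 95% interval -1.33 to 0.11, adjusted p = 0.734).

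Its copy *Hbb-bt* (ENSMUSG00000073940, chromosome 7, 103812524 to 103813996, minus strand) stood at 2.57 and 3.34 CPM in the controls and 1.23 and 0.521 CPM in the knockout libraries. The groups did not overlap, and the log2 fold change of -1.74 (SE 0.47, unadjusted p = 0.0113, adjusted p = 0.406, edgeR's quasi-likelihood test) was lower than that of any of the 9 genes. There were 0.165 and 0.189 *Hbb-bt* reads for each *Hbb-bs* read in the controls. In the knockout libraries there were 0.0880 and 0.0676, both below both controls. The intervals of knockout A (0.0560 to 0.133) and knockout B (0.0317 to 0.128) both overlapped that of control 1 (0.121 to 0.221). Without knockout A the log2 fold changes of the copies *Hbb-bt* and *Hba-a2* were -2.49 and -1.47. Without knockout B they were -1.26 and -0.65.

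Summed over each pair, alpha and beta globin had the same order over the libraries. Alpha globin (*Hba-a1* and *Hba-a2*) gave 13.9 and 15.4 CPM in the controls and 11.2 and 6.46 CPM in the knockout libraries. Beta globin (*Hbb-bs* and *Hbb-bt*) gave 18.2 and 21.0 CPM in the controls and 15.3 and 8.24 CPM in the knockout libraries. The mean of the knockout was 60.2% of the control for alpha and 59.9% for beta globin.

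With the reads of each pair pooled as 1 gene, an analysis chosen after the data were seen, the log2 fold change was -0.73 for alpha globin (95% interval -1.41 to -0.05, unadjusted p = 0.0402, adjusted p = 0.601) and -0.74 for beta globin (95% interval -1.47 to -0.003, unadjusted p = 0.0493, adjusted p = 0.639), both by edgeR's quasi-likelihood test. Neither passed. Without knockout A the pooled log2 fold changes were -1.18 and -1.25. Without knockout B they were -0.39 and -0.36.

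The number of alpha globin reads for each beta globin read was nearly the same in the 4 libraries. It was 0.765 and 0.733 in the controls and 0.735 and 0.785 in the knockout libraries, and all the counting intervals overlapped, the widest running from 0.615 to 0.999. Over the same libraries the summed level of the 4 globin genes ran from 14.7 to 36.5 CPM. Between the knockout libraries alone that sum differed 1.80-fold (95% counting interval 1.56 to 2.09).

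*Alas2* (ENSMUSG00000025270, chromosome X, 150547375 to 150570638, plus strand) did not follow the summed globins in the order of the controls or in the sign of its fold change. Like them, it was lower in knockout B than in knockout A, by a log2 ratio of -0.43 (95% counting interval -0.63 to -0.24). Its level was 23.7 and 18.5 CPM in the controls and 26.1 and 19.3 CPM in the knockout libraries, so that the highest and the second lowest value were both in the knockout. The log2 fold change was 0.11 (SE 0.20, 95% interval -0.40 to 0.61, adjusted p = 0.961). Its sign turned without control 2 (-0.07) and without knockout A (-0.12).

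There were 0.739 *Alas2* reads for each read of the 4 adult globin genes in control 1 (95% counting interval 0.656 to 0.832) and 0.508 in control 2 (0.451 to 0.570). In knockout A there were 0.985 (0.872 to 1.11), and in knockout B 1.32 (1.12 to 1.54). No interval overlapped another, and both knockout values were above both controls. This ratio was not tested.

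**Figure D3:**
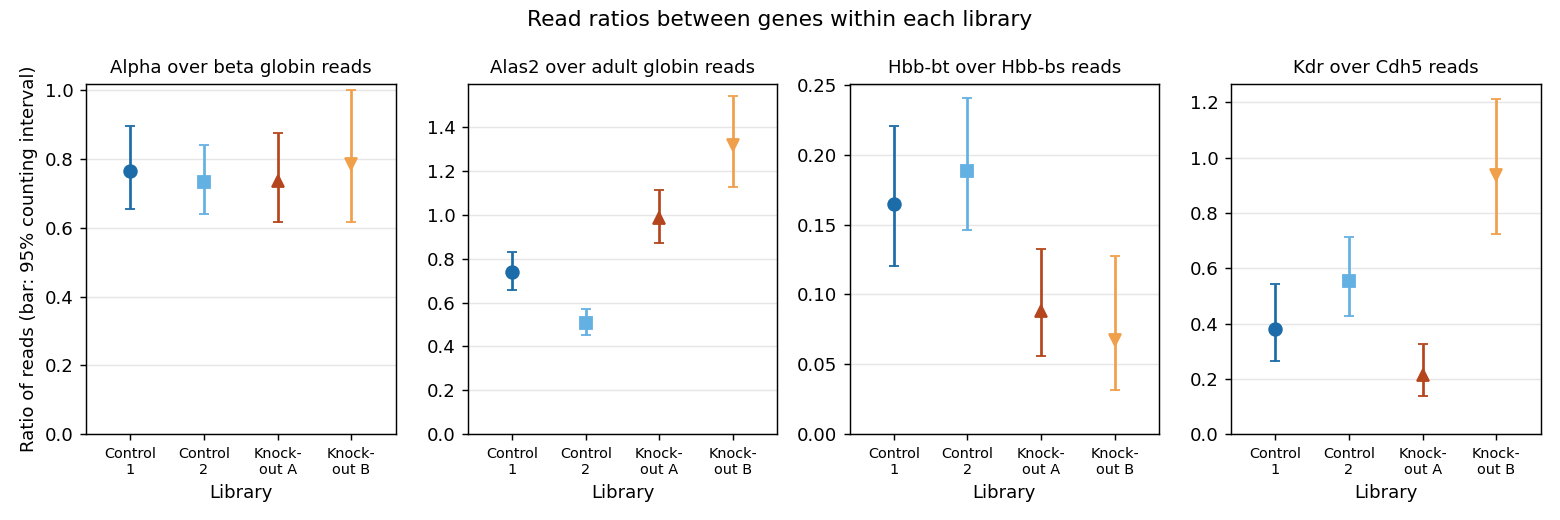
Ratios of reads between genes in each library, with 95% counting intervals as bars and a separate axis from 0 in each panel. The ratio of alpha to beta globin reads lay between 0.733 and 0.785 in the 4 libraries, while that of Alas2 to the adult globins ran from 0.508 to 1.32 and that of Kdr to Cdh5 from 0.215 to 0.937.

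The red blood cell label was checked against other markers of these cells. *Slc4a1*, the anion exchanger band 3 of the red cell membrane, had 1 and 5 reads in the controls and 0 and 1 in the knockout libraries. *Epb42* had 1 read in all 4 libraries together and *Rhag* none, where a count of 0 allows up to 3 reads, or 0.127 to 0.156 CPM in these libraries. The embryonic globins were also nearly absent, with 0 reads of *Hba-x*, *Hbb-bh1* and *Hbb-bh2* and 1 or 2 reads of *Hbb-y* in each library. The globins had from 282 to 863 reads a library in sum, while these membrane genes had from 0 to 5 each. They were named after their values were seen, from a list of 20 red cell membrane and enzyme genes. Of that list 12 passed the filter, where 15834 of all 25683 genes did. The sum of the list ran from 300 to 500 CPM a library. Much of that sum was the carbonic anhydrase *Car2*, so it does not measure the membrane genes.

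In the controls *Alas2* stood near *Hba-a1* in level, at 10.4 against 10.1 RPKM, but below *Hbb-bs*, at 23.4 RPKM. Whether its reads came from red blood cells was not tested. In control 1 91.0% of its exon reads and in control 2 88.6% crossed from one exon to the next, where 62.5% did over all genes in control 1. Introns held 2.40% and 3.74% of the reads in the gene.

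The endothelial label was checked in the same way. Further receptors, ligands, junction genes and regulators of endothelium passed the filter in 53 of 58 cases, where 15834 of all 25683 genes did. Passing the filter does not show which cells the reads came from. *Cldn5*, a tight junction protein, stood at 6.21 and 10.1 CPM in the controls and 6.37 and 5.73 CPM in the knockout libraries. *Emcn*, an endothelial sialomucin, had from 4 to 20 reads and *Plvap*, a protein of fenestrated endothelium, from 5 to 22.

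The other genes of these pathways were taken from 9 lists with 111 genes in the table, of which 88 were tested. None passed at an adjusted p under 0.05 by edgeR's quasi-likelihood test, 13 had an unadjusted p under 0.05 (14.8%, against 7.79% of all genes), and DESeq2 called 1 (*Flt4*), the likelihood ratio test 2 (*Flt4* and *Hbb-bt*) and limma voom 0. Without knockout A 25 of these genes passed, where 23.9% of all genes did, and without knockout B 14, where 17.0% did, so that both counts were near the share over all genes. The median log2 fold change over the 88 was -0.14. Both knockout libraries were below both controls for 21 of the 88, where 19.2% of all genes were, and above for 10, where 17.9% were.

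Of 14 endothelial receptors all were tested, 11 had a log2 fold change below 0, and the median was -0.38, which was -0.10 without control 2. *Flt4*, the receptor VEGFR3 that lymphatic and some blood endothelium uses, stood at 12.5 and 14.1 CPM in the controls and 6.72 and 5.68 CPM in the knockout libraries. Its groups were far apart, with a log2 fold change of -1.10 (SE 0.18, unadjusted p = 0.00111, adjusted p = 0.151), the smallest p of the 88. It passed under DESeq2 (adjusted p = 0.00822). Its log2 fold change was -1.23 without knockout A and -0.98 without knockout B. *Clec14a*, an endothelial lectin, had a log2 fold change of -1.02 (unadjusted p = 0.0424), and *Nrp1*, a co-receptor for VEGF, one of -0.26 (adjusted p = 0.954). *Nrp1* stood at 4.03 and 4.82 CPM in the controls, 2.17 CPM in knockout A and 5.21 CPM in knockout B. Without knockout B its log2 fold change was -1.02.

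*Robo4*, a receptor that stabilizes endothelium, had 0.922 and 1.61 CPM in the controls, 1.04 CPM in knockout A and 7.30 CPM in knockout B. It thus stood out in the library in which *Kdr* was also high, by 7.04-fold over the other knockout library, and only 0.461% of all genes tested differed by more between these libraries. Of the 14 receptors 7 were higher in knockout B than in knockout A (50%, against 50.7% of all genes), among them *Nrp1*, and 7 were lower, among them *Tek* (2.42 CPM in knockout A and 1.41 in B) and *Flt1* (5.14 and 4.07 CPM). *Robo4* was singled out after its values were seen.

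Of the 12 ligands, 8 were tested and 5 had a log2 fold change above 0, with a median of 0.08. *Apln*, the apelin peptide, stood at 6.50 and 7.82 CPM in the controls and 8.84 and 14.5 CPM in the knockout libraries (log2 fold change 0.70, unadjusted p = 0.0475). Per kilobase of exon the highest ligand was *Vegfb* (a mean of 3.91 RPKM over the 4 libraries), with 4.80 and 5.15 CPM in the controls and 4.84 and 5.21 CPM in the knockout libraries. *Egfl7*, which endothelium secretes, had a log2 fold change of -0.30 (adjusted p = 0.919), and *Vegfa*, the ligand of KDR, one of 0.15.

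Of the 17 junction and adhesion genes, 16 were tested, with a median of -0.21, which was -0.03 without control 2 and -0.45 without control 1. *Podxl*, podocalyxin, stood at 3.83 and 5.66 CPM in the controls and 2.52 and 2.55 CPM in the knockout libraries (log2 fold change -0.91, unadjusted p = 0.0249). Its log2 fold change was -0.90 without knockout A and -0.92 without knockout B, where the nearly equal knockout values left little room for change. By mean RPKM over the 4 libraries the highest were *Vcam1*, *Jam2* and *Cd34*, with log2 fold changes of 0.25, 0.42 and 0.33. Each was highest in knockout B, which that mean includes, and in the controls alone *Cldn5* (5.74 RPKM) was above *Jam2* (4.71) and *Cd34* (4.63). Of the 16 tested, 11 were higher in that library than in the other knockout library (68.8%, against 50.7% of all genes).

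Of 15 regulators, all tested, the median was -0.17, which was -0.03 without control 2. *Gata2*, a transcription factor of blood and endothelium, stood at 23.4 and 23.1 CPM in the controls and 31.4 and 27.3 CPM in the knockout libraries (log2 fold change 0.34, unadjusted p = 0.0368). *Klf4* and *Klf2*, transcription factors that blood flow induces in endothelium and that other cells use too, had log2 fold changes of 0.05 and -0.21. *Erg*, a transcription factor that endothelium depends on, stood at 2.09 and 2.66 CPM in the controls and 1.28 and 1.67 CPM in the knockout libraries.

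Of the other heme synthesis and import genes 10 of 10 were tested, with a median of -0.03. *Alad*, the second enzyme of the pathway, stood at 43.1 and 39.7 CPM in the controls and 52.7 and 56.9 CPM in the knockout libraries (log2 fold change 0.41, SE 0.11, unadjusted p = 0.00999, adjusted p = 0.382). Its log2 fold change was 0.46 without knockout A and 0.35 without knockout B. *Alas1*, the form of the first enzyme found in all tissues, stood at 118 and 127 CPM in the controls and 116 and 145 CPM in the knockout libraries.

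Of 20 red cell membrane and enzyme genes 12 were tested, with a median of -0.07. *Ank1*, the ankyrin that ties band 3 to spectrin, stood at 2.62 and 1.73 CPM in the controls and 0.543 and 1.25 CPM in the knockout libraries (log2 fold change -1.27, unadjusted p = 0.0464). *Dmtn*, dematin, stood at 2.28 and 2.20 CPM in the controls and 4.05 and 3.91 CPM in the knockout libraries (0.83, unadjusted p = 0.0196). The most abundant were the carbonic anhydrase *Car2*, *Bpgm* and the transferrin receptor *Tfrc*, by mean RPKM, with log2 fold changes of -0.18, -0.002 and -0.06. *Car2* stood at 207 and 199 CPM in the controls, 269 CPM in knockout A and 89.4 CPM in knockout B, above both controls in the first and below both in the second. Its log2 fold change was -1.18 without knockout A and 0.41 without knockout B.

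Of 10 erythroid regulators 8 were tested, with a median of 0.03. *Klf1*, which switches on beta globin in erythroid cells, stood at 2.96 and 3.30 CPM in the controls and 5.58 CPM in each knockout library (log2 fold change 0.83, unadjusted p = 0.0123, adjusted p = 0.422, edgeR's quasi-likelihood test). Its log2 fold change was 0.83 both without knockout A and without knockout B, where the equal knockout values left little room for change. *Gata1*, which Sertoli cells of the testis also express, and its partner *Zfpm1* had log2 fold changes of 0.04 and 0.02.

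Knockout B, in which the globins were lowest, also differed from the other knockout library in its markers of testis cells. The summed level of 7 elongating spermatid genes was 20734 and 21111 CPM in the controls, 27597 CPM in knockout A and 12390 CPM in knockout B. That of 8 macrophage genes was 87.9, 106, 83.4 and 122 CPM and that of 8 Sertoli cell genes 256, 266, 261 and 327 CPM in the same order. Round spermatid genes (6) summed to 1146, 1045, 1464 and 1115 CPM. Spermatogonia (193 to 208 CPM over 7 genes) and spermatocytes (987 to 1039 CPM over 7 genes) varied least.

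Markers of other blood cells were low. Of 9 platelet genes 5 were tested and *Ppbp* and *Gp9* had 0 reads, with sums of 11.4 and 10.2 CPM in the controls and 11.8 and 7.56 CPM in the knockout libraries. Of 9 leukocyte genes 3 were tested, *S100a8*, *S100a9* and *Ly6g* had 0 reads, and the sums ran from 1.78 to 2.79 CPM. The part of any of these markers in the values of the endothelial and red blood cell genes was not tested.

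**Figure D4:**
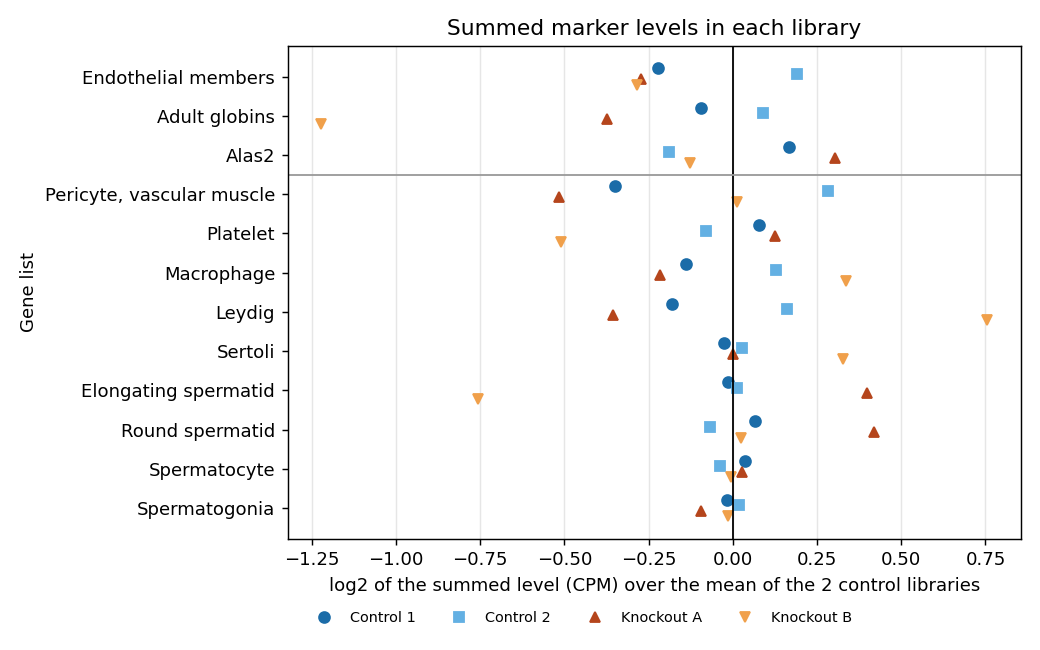
Summed level of the endothelial genes, the 4 adult globin genes, Alas2 and lists of other testis cells in each library, as log2 of its ratio to the mean of the 2 controls. In knockout B the globins stood at -1.22, elongating spermatid genes at -0.76 and Leydig genes at 0.76. Most of that Leydig sum was Insl3, and the median over the single Leydig genes was 0.26.

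The genes with a pattern over the 4 libraries most like the mean of the 6 endothelial genes were *Kantr*, *Plau*, *Lama4*, *Ebf1* and *Megf6*, by the root mean square difference of centred log2 CPM, which was 0.022 to 0.039. For the endothelial genes themselves this distance from their own mean ran from 0.15 to 0.70. Nearest to the mean of the 3 red blood cell genes were *Cadm4*, *4930579F01Rik*, *Rpp21*, *Rprml* and *Plekha4*, at 0.017 to 0.031. The likeness was taken over 4 libraries and 14679 genes, and it is a description only.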

How the data were processed

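Poly(A) RNA of testis was sequenced as 150 bp paired-end reads in 2 control and 2 *Parp1* knockout libraries. Alignment by the authors in CLC Genomics Workbench was to GRCm38 (mm10), and the deposited values used here are counts of exon reads per gene, in whole numbers. Of the table's 67 per-library columns, 56 stayed unused, among them RPKM and the authors' TPM values, as were their fold changes and p-values. Shares of unique, exon-exon and intron reads were taken for the controls only, because the knockout sets share 1 heading.

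Genotypes were compared by the quasi-likelihood test of edgeR 4.0.16 in R 4.3.3 after filterByExpr (minimum 10 counts) and TMM, two-sided, with Benjamini-Hochberg adjustment over 15834 genes and a threshold of 0.05. CPM are TMM-scaled, and RPKM are CPM per kilobase of exon. Intervals of ratios between libraries or genes and of shares are exact 95% intervals and cover counting error only. Alternatives were DESeq2 1.42.0, the likelihood ratio test, limma voom (limma 3.58.1), scaling by RLE, by the upper quartile or by library size alone, all genes with a read, at least 10 reads in every library, a threshold of 0.1, leaving out each library, and the pooled globin pairs, the last chosen after seeing the data. The procedure was tested on simulated data. Sequences were read with Python 3.11.15 and figures drawn with matplotlib 3.10.9.

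The genes and 21 lists were chosen with earlier results of these data known. Genes named were the 9 genes, the globin copies, in each list those past the threshold and the 3 of highest RPKM (some are not reported here), the 5 nearest patterns, and *Parp1* and *Parg*. Others, such as those with an unadjusted p under 0.05 and the markers used to check labels, were named after their values were seen.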

Additional observations from a re-analysis of the deposited data

How the results depend on the processing

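The count of 0 of the 9 genes stayed at 0 under DESeq2, the likelihood ratio test, limma voom, scaling by RLE, by the upper quartile or without TMM, the removal of the filter, 10 reads in every library and a threshold of 0.1. It ran from 0 to 6 when single libraries were left out, with 6 without knockout A and 1 without knockout B. Over the pathway lists the count went from 0 to 1 (DESeq2) and 2 (likelihood ratio test), and from 0 to 25 with libraries left out. Over all genes it went from 15 to 193 (DESeq2), 374 (likelihood ratio test), 41 (no TMM), 52 (no filter) and 53 (threshold of 0.1), and from 8 to 3890 with libraries left out. A genotype with 1 library left is then assumed to vary as the other does.

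The sign turned for *Cdh5* (0.18) and *Tie1* (0.039) without control 2, for *Alas2* without control 2 (-0.07) and without knockout A (-0.12), and for *Kdr* under limma voom (-0.086), without control 1 (-0.14) and without knockout B (-1.20). With libraries left out the log2 fold change ran from -0.20 to 0.18 for *Cdh5*, -0.80 to -0.27 for *Eng*, -0.42 to -0.15 for *Vwf*, -1.29 to -0.44 for *Pecam1*, -1.20 to 0.95 for *Kdr*, -1.03 to 0.04 for *Tie1*, -0.92 to -0.15 for *Hba-a1*, -1.11 to -0.25 for *Hbb-bs* and -0.12 to 0.31 for *Alas2*. The causes were not tested.

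No paired analysis was possible because both knockout columns carry the same replicate number. Unique reads in place of all exon reads were not run, since the knockout columns of that kind could not be used. *Pecam1* and *Tie1*, with 20 to 75 reads a library, had few reads to count. For *Kdr* the knockout libraries differed by more than counting error. List medians moved with the libraries left out, for example from -0.48 to -0.10 for the endothelial receptors and from -0.57 to -0.07 for the 6 endothelial genes.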

Other observations

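Lymphatic endothelium and the muscle of vessels were measured through a few genes each. Of 5 lymphatic genes 3 were tested, and none passed at an adjusted p under 0.05 by edgeR's quasi-likelihood test. *Pdpn*, podoplanin, stood at 2.04 and 3.38 CPM in the controls and 0.988 and 0.990 CPM in the knockout libraries (log2 fold change -1.45, unadjusted p = 0.0113, adjusted p = 0.406). Its log2 fold change was -1.45 without knockout A and -1.46 without knockout B, where the nearly equal knockout values left little room for change. The median over the 3 lymphatic genes tested was -0.55, and it was -1.14 without control 1 and -0.54 without control 2. *Prox1*, a transcription factor of lymphatic endothelium, stood at 9.66 and 9.89 CPM in the controls and 7.46 and 5.89 CPM in the knockout libraries (-0.55, unadjusted p = 0.0321). *Reln*, reelin, had a log2 fold change of 0.02. *Lyve1*, a receptor that marks lymphatic vessels, had 8 reads at most.

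Of 11 pericyte and vascular muscle genes none passed (0.0947% of all genes did), and 0 had an unadjusted p under 0.05 (7.79% of all genes did). DESeq2 (1.22% of all genes) and limma voom (0.0695%) also called 0. The most abundant were *Acta2*, *Tagln* and *Myh11*, contractile proteins of smooth muscle, which the peritubular cells of the testis also make, with log2 fold changes of -0.14, -0.58 and -0.51. *Acta2* stood at 29.2 and 47.9 CPM in the controls and 26.8 and 43.1 CPM in the knockout libraries, so that it was high in control 2 and in knockout B. *Insl3*, a hormone of Leydig cells, stood at 620 and 780 CPM in the controls and 597 and 1796 CPM in the knockout libraries, with the highest level in the same library as *Kdr* and *Robo4*. *Cyp17a1*, a steroid enzyme of the same cells, was at 226 and 259 CPM in the knockout libraries, below both controls (301 and 389 CPM, unadjusted p = 0.0232).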
